A study of Mus musculus with 14 samples.

Results

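The CC chemokine genes described here number 7: Ccl2, Ccl7, Ccl8, Ccl9, Ccl11, Ccl17 and Ccl20. They are 7 of the 43472 genes in the data, found by symbol, and each symbol named 1 row in both tables of normalised counts. The cells were primary fibroblasts, connective tissue cells grown from the tail ends of C57BL/6 mice, scratched with a pipette tip as a model of a wound. They were left untreated (Untreated) or given autologous micrograft (AMG-treated), the soluble part of minced mouse skin, spun free of cells and diluted in growth medium. All groups shared the tail origin, the serum-containing medium and the scratch, and no age was used here. Untreated and AMG-treated cells were sequenced at 5 h in replicates 2, 3 and 4, giving 3 libraries per group, and at 1, 5, 12 and 24 h in replicate 1, giving 1 library per treatment and time. The labels do not say whether replicates came from separate animals, so p-values measure the spread between these libraries, which may be technical.

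CC chemokines are small secreted proteins that bind receptors on leukocytes and draw them towards a source. Ccl2 and Ccl7 attract monocytes through Ccr2, Ccl9 acts on myeloid cells through Ccr1, Ccl20 attracts Ccr6-bearing dendritic cells and T cells, Ccl17 attracts Ccr4-bearing T cells, Ccl11 attracts eosinophils through Ccr3, and mouse Ccl8 attracts Ccr8-bearing T cells. Fibroblasts of injured skin are a known source of several of them. Transcription of Ccl2 and Ccl20 is known to respond to NF-kB, a family of transcription factors held in check by inhibitor proteins, and that of Ccl11 and Ccl17 to interleukin-4 and interleukin-13 acting through the factor STAT6.

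The genes sit on 3 chromosomes of the genome (build GRCm38, also called mm10). Ccl2, Ccl7, Ccl11 and Ccl8 lie in that order on the plus strand of chromosome 11, within 81.2 kb (positions 82035571 to 82116799), together with Ccl12. Ccl9 lies on the minus strand of the same chromosome (83572919 to 83578636), 1456 kb further on. Ccl17 is on chromosome 8 (94810453 to 94812036) and Ccl20 on chromosome 1 (83116766 to 83119167), both on the plus strand. Ccl2 is overlapped on the opposite strand by Gm17268, which had 0 reads in all 14 libraries. No stretch of 50 bases in the transcripts of 6 of the genes occurred in another gene, and 1.97% of such stretches in Ccl9 did. None of these lay in another CC chemokine, so the members shared no exact stretch of 50 bases. Stretches that differ in a few bases were not searched.

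RefSeq holds promoter sequence (GRCm38.p6) for 4 of the 7 genes. The 250 bases before the start are shown, on the strand of the gene, for Ccl20, Ccl9 and Ccl17, the members tested at 5 h with a sequence, because each holds a motif tied to the pathways above. Capitals mark the motifs.
Ccl20: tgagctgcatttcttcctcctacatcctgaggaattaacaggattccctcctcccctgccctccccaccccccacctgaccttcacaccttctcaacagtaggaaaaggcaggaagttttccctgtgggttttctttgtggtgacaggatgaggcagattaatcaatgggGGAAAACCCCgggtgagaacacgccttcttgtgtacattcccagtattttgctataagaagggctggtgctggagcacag
Ccl9: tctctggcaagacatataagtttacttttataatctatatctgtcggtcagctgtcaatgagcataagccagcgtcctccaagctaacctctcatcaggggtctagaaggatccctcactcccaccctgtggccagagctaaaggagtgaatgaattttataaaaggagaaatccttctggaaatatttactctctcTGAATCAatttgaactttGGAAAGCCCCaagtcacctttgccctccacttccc
Ccl17: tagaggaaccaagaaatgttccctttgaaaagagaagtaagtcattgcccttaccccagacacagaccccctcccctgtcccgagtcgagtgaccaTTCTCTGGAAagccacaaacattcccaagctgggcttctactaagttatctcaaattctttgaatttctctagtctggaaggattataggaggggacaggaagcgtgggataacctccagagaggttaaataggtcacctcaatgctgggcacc
Both strands were searched for 4 motifs. These were the kB consensus bound by NF-kB, TTCNNNNGAA bound by STAT factors, TTGCNNAA bound by C/EBP factors, and TGANTCA. The last is a loose form of the AP-1 site that allows any base at its centre. In Ccl20 (chr1:83116516-83116765) the kB consensus stood 80 to 71 bases before the start, read on the opposite strand. In Ccl9 (chr11:83578637-83578886) it stood 35 to 26 bases before the start, also on the opposite strand. TGANTCA, here with the letters TGAATCA, stood 53 to 47 bases before the start. The Ccl17 sequence (chr8:94810203-94810452) held TTCNNNNGAA 154 to 145 bases before the start and neither of those 2 motifs. The promoter of Ccl8 held none of the 4. Of 32851 promoters of this length, 7.25% held the kB consensus, 6.75% TGANTCA, 5.85% TTCNNNNGAA and 9.56% TTGCNNAA. Such a match describes the letters and does not show that a factor binds there.

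The transcripts also differ in their 3′ untranslated regions. The pentamer ATTTA, the core of AU-rich elements that are known to shorten the life of cytokine transcripts, occurred 9 times in that of Ccl20, 5 times each in those of Ccl9 and Ccl11, 2 times in that of Ccl7 and 1 time in that of Ccl2. Those of Ccl8 and Ccl17 held 0 copies. Of 2707 genes with a 3′ untranslated region of a length like that of Ccl20, 0.739% held as many copies, against 3.02% for Ccl11 and 45.2% for Ccl9, each among genes of like length.

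Between 12545537 and 34696529 reads per library were assigned to genes. The normalised count is the read count divided by a size factor per library. It was set separately for the table of replicate 1 and for that of replicates 2 to 4, so levels are compared within a table. All 10 fibroblast markers, such as Col1a1 and Pdgfra, were above 0 in every library. Of 15 leukocyte markers, 2 to 8 were at 0 in a library of replicates 2 to 4, with Cd3e and H2-Aa, of T cells and antigen-presenting cells, at 0 in all 6. Others were above 0 in all 6, among them the myeloid cell markers Lyz2 at 76.6 to 978, Csf1r at 59.8 to 182 and Cd68 at 9.75 to 54.2. The summed leukocyte marker level was 1393 in Untreated and 1300 in AMG-treated replicate 4, against 185 to 322 in replicates 2 and 3. Thy1, a fibroblast surface protein, was at 14712 and 14412 in the pair of replicate 3 and between 1068 and 1723 in the other 4 libraries of that table.

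At 5 h, Ccl2 and Ccl20 rose with AMG in replicates 2 to 4. Ccl20 had the largest log2 fold change of all 13096 genes tested and Ccl2 the 16th largest. Differences are given as log2 fold changes of the normalised count + 1, tested with limma, with a Benjamini-Hochberg adjustment over all tested genes and a threshold of 0.05. Of the 7 members, 5 passed the filter of a mean normalised count of at least 10, Ccl20 only through its treated libraries, and 2 of these 5 were called higher. Over all tested genes 0.97% were called higher and 0.267% lower. With the replicate number as a block, 5 of the 5 were called higher, beside 17.9% of all genes higher and 19.3% lower. The members' median log2 fold change was 2.64, against -0.02 over all tested genes. The members were chosen with earlier results of these data known, so their counts and median, here and below, are descriptions. In a bulk culture, a change in the number of cells of a type cannot be told apart from a change in RNA per cell.

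Ccl2, the main attractant of monocytes, had normalised counts of 1933, 962 and 407 in Untreated replicates 2, 3 and 4 and of 38912, 17335 and 42283 in the AMG-treated ones. Every treated library was above every untreated one, and replicate 4 had both the lowest untreated and the highest treated value. The mean went from 1101 ± 772 to 32843 ± 13536 (SD, n = 3), which is 5.07 on the log2 scale (SE 0.59). The adjusted p was 0.0196 with limma and 3.76e-05 with the block. It passed in 18 of 23 alternative settings, with adjusted p-values from 4.39e-17 (DESeq2) to 0.409 (without both libraries of replicate 4).

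Ccl7, the neighbour of Ccl2 and a second ligand of Ccr2, had a higher untreated level and a smaller fold. It was at 3662, 1632 and 810 in the untreated libraries and at 12405, 6833 and 13790 in the treated ones. The groups did not overlap, and the order of the untreated replicates was that of Ccl2. The log2 fold change was 2.64 (SE 0.54), which missed the threshold with limma (adjusted p = 0.0721) and passed it with the block (0.000802). Over the alternatives the adjusted p ran from 4.09e-07 to 0.676.

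Ccl9, a ligand of Ccr1, was at 70.4, 87.7 and 135 without AMG and at 435, 243 and 631 with it. The lowest treated value was again that of replicate 3, and the groups did not overlap. The log2 fold change of 2.10 (SE 0.40) had an adjusted p of 0.0612 with limma and 0.000211 with the block, and of 2.98e-07 to 0.462 over the alternatives.

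Ccl20, the ligand of Ccr6, was close to absent without AMG, with 17, 4 and 5 reads in Untreated replicates 2, 3 and 4. These are normalised counts of 18.7, 5.57 and 2.70. With AMG it reached 9921, 1022 and 9632. Even the lowest treated library, replicate 3, was far above the highest untreated one. The difference was 9.20 on the log2 scale (SE 1.00), at an adjusted p of 0.0190 with limma, 1.08e-05 with the block and 2.02e-14 (DESeq2) to 0.413 (without replicate 4) over the alternatives, of which 18 of 23 passed.

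Ccl17, the ligand of Ccr4, was low throughout. It was at 23.1, 5.57 and 9.74 in the untreated libraries and at 111, 23.0 and 120 in the treated ones. After scaling, treated replicate 3 (28 reads) fell just under untreated replicate 2 (21 reads), so the groups overlapped, although AMG was higher within each number. Its log2 fold change of 2.52 (SE 0.78) had an adjusted p of 0.133 with limma and 0.00161 with the block, and of 0.000217 to 0.719 over the alternatives.

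**Figure D1:**
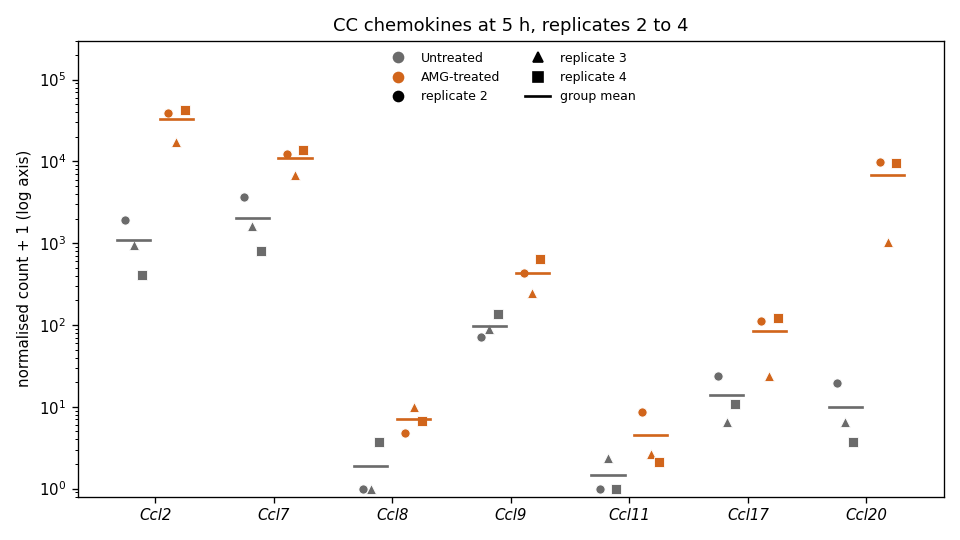
Normalised counts + 1 of the 7 CC chemokines at 5 h on a log axis, with 1 point per library (marker shape gives the replicate number) and a bar at each group mean (n = 3). Untreated and AMG-treated points do not overlap for Ccl2, Ccl7, Ccl9 and Ccl20, where 15.1% of all tested genes had all treated values above all untreated ones. Nor do those of Ccl8, which was not tested and had 0 to 11 reads per library, near the floor. The treated point of replicate 3 is the lowest for Ccl2, Ccl7, Ccl9, Ccl17 and Ccl20.

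Ccl8 and Ccl11, ligands that draw T cells and eosinophils, were barely detected in these replicates and were not tested. Ccl8 had 0, 0 and 5 reads in the untreated libraries and 3, 11 and 5 in the treated ones, and Ccl11 had 0, 1 and 0 against 6, 2 and 1. The limit that a count of 0 allows, 3 reads, was a normalised count of 1.62 to 4.18 in these libraries. A difference in Ccl11 of that size was therefore not detectable at this depth. In a fit over all 21663 genes above 0, Ccl8 had an adjusted p of 0.191, or 0.0233 with the block, and Ccl11 0.350, or 0.13. Over the 3 alternatives that tested them, the adjusted p ran from 0.0233 to 0.856 for Ccl8 and from 0.13 to 0.781 for Ccl11.

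Of the 5 tested members, 4 had all treated values above all untreated ones, as did 15.1% of all tested genes. AMG-treated replicate 3 was the lowest treated library for all 5. Without that library 5 of the 5 passed the test, among 2199 genes called in all. Without both libraries of replicate 4, 0 members and 0 genes in all passed with limma, while 4 members and 885 genes had an unadjusted p under 0.05. Within a replicate number the log2 ratio of Ccl2 ran from 4.17 (replicate 3) to 6.70 (replicate 4) and that of Ccl20 from 7.28 to 11.3, in the same replicates. Short transcripts as a class were somewhat higher with AMG. Genes within 20% of the length of Ccl2 had a median log2 fold change of 0.39, and those of the length of Ccl17 one of 0.54. A correction for length left Ccl2 at 4.65 and Ccl20 at 8.94, both past the threshold.

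**Figure D2:**
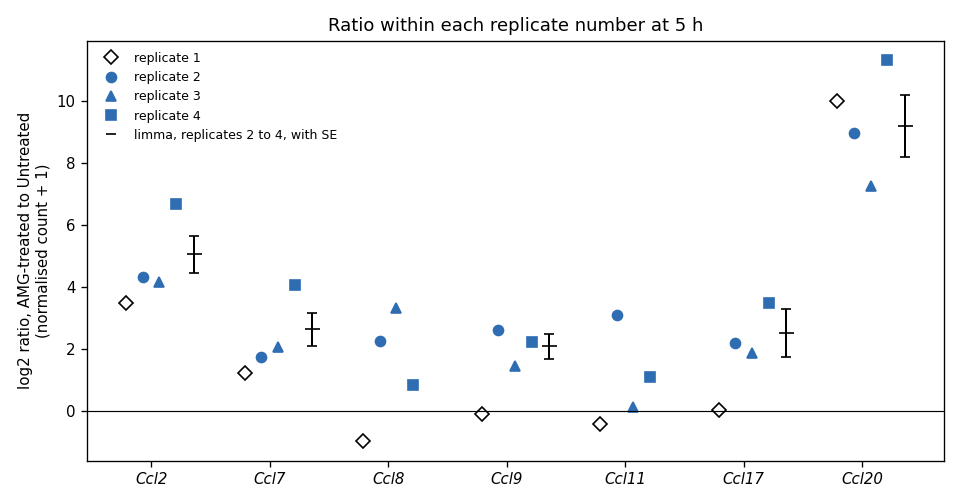
Log2 ratio of AMG-treated to Untreated (normalised count + 1) within each replicate number at 5 h for the 7 genes, with the limma estimate and its standard error from replicates 2 to 4 for the 5 tested genes. All ratios of Ccl2, Ccl7 and Ccl20 lie above 1. Before any length correction, replicate 1 (open symbols, scaled in its own table) has the lowest ratio for Ccl2, Ccl7, Ccl8, Ccl9, Ccl11 and Ccl17. With the correction, not drawn, its log2 ratios were 4.49, 2.24, 0.06, -0.12, 0.45 and 1.08 for these genes in that order.

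The second question was how the genes behaved over time. Replicate 1 had 1 library per treatment and time, so its ratios have no replicate check. They are given as folds with exact 95% intervals that cover counting error only. At 1 h, 6 of the 7 had a log2 ratio above 1, where 11.3% of 13498 genes with a mean of at least 10 did. At 5, 12 and 24 h it was 3, 5 and 5 members, beside 13.3%, 5.93% and 6.05% of genes. The 1 h and 5 h pairs were uneven by transcript length. Genes of the length of Ccl2 had a median log2 ratio of 1.02 at 1 h and of -0.99 at 5 h, and ribosomal protein genes, which are short, took 5.10% of reads in the treated 1 h library and 7.0% in the untreated 5 h library, against 2.27% to 3.47% in the other 12. With a correction for length, 4 of the 7 were above 1 at 1 h, beside 7.16% of 12838 genes with a known length. At 5, 12 and 24 h it was then 4, 5 and 5 members, beside 9.91%, 5.94% and 5.88%. Only ratios of treated to untreated were corrected. Levels and folds over time within a treatment were not, so those from the treated 1 h and untreated 5 h libraries may carry this unevenness. The mean of Ccl17 in replicate 1 was under 10, so it is counted among the members but not among the genes. It was 1 of the 6 at 1 h, on 7 and 13 reads. With the correction it was 1 of the 4 at 5 h, on 5 and 11 reads. At 12 and 24 h it had at most 1 read and was not above 1.

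Ccl2 was higher with AMG at every time, and before any length correction its ratio was largest at 1 h. It had normalised counts of 2195, 1477, 3144 and 5417 at 1, 5, 12 and 24 h without AMG and of 37849, 16617, 27638 and 36233 with it. The folds were 17.2 (16.5 to 18.0), 11.3 (10.5 to 12.0), 8.79 (8.51 to 9.08) and 6.69 (6.52 to 6.86). Without a length correction, the untreated level at 24 h was 2.47 times that at 1 h and the treated level 0.957 times. The ratio of treated to untreated was smallest at 24 h. After the length correction the log2 ratio was 3.04 at 1 h and 4.49 at 5 h, which turns the order of these 2 times.

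Ccl7 climbed in the untreated cells, from 1020 at 1 h to 2560, 4776 and 7476, which is 7.33 times its 1 h level at 24 h. In treated cells it was at 14429, 6010, 12397 and 19212. The fold with AMG was 14.2 (13.3 to 15.1) at 1 h and between 2.35 and 2.60 at the later times. The length correction moved its log2 ratio at 1 h from 3.82 to 2.74 and at 5 h from 1.23 to 2.24. At 1 h the folds of Ccl2 and Ccl7, 17.2 and 14.2, were closer to each other than at any later time.

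Ccl20 had 14, 1, 5 and 15 reads without AMG and 1619, 3481, 1281 and 1162 with it. The treated normalised counts were 2815, 2693, 1221 and 1046. Without a length correction, the level of treated cells at 5 h was 0.957 times that at 1 h (0.902 to 1.02). At 24 h it had gone down to 0.372 times. The fold was 229 (136 to 419) at 1 h, 334 (143 to 1029) at 12 h and 91.1 (55.0 to 163) at 24 h. At 5 h the untreated library had 1 read, and the ratio of 1643 has an interval of 295 to 64911. At 1, 5 and 12 h no gene of like length had a log2 ratio as high.

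Ccl9 was at 447 in treated cells at 1 h and declined to 190, 134 and 97.2. Untreated cells had 58.9, 203, 52.0 and 70.5. The fold was 7.59 (5.78 to 10.1) at 1 h and 2.59 (1.93 to 3.49) at 12 h. At 5 h it was 0.933 (0.748 to 1.17), and its log2 value of -0.10 turned to 0.06 under another setting. The replicate 1 pair at 5 h thus showed no difference in Ccl9 beyond counting error, whereas the pairs of replicates 2 to 4 had log2 ratios between 1.46 and 2.61.

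Ccl8 and Ccl11 had their largest ratios at 24 h. Ccl8 was at 113, 374, 106 and 112 without AMG and at 419, 190, 185 and 482 with it, and Ccl11 at 133, 116, 41.0 and 77.3 against 202, 87.4, 86.7 and 321. At 24 h the fold was 4.31 (3.58 to 5.21) for Ccl8 and 4.15 (3.32 to 5.23) for Ccl11. At 5 h the log2 ratios were -0.98 and -0.41, the second within counting error (fold 0.751, 0.553 to 1.03), while the median of genes of like length was -1.18 and -0.86, and both values turned to 0.06 and 0.45 with the length correction. The log2 ratio of Ccl11 at 1 h, 0.60, turned to -0.25 with it. Ccl17 had 7 and 13 reads at 1 h, a fold of 3.67 (1.36 to 10.9), 5 and 11 reads at 5 h, and at most 1 read at 12 and 24 h. Genes of its length had a median log2 ratio of 1.40 at 1 h, and 25.2% of them had one as high. With the length correction its log2 ratio went from 1.72 to 0.55 at 1 h and from 0.05 to 1.08 at 5 h, and that of Ccl8 at 1 h from 1.88 to 0.70.

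**Figure D3:**
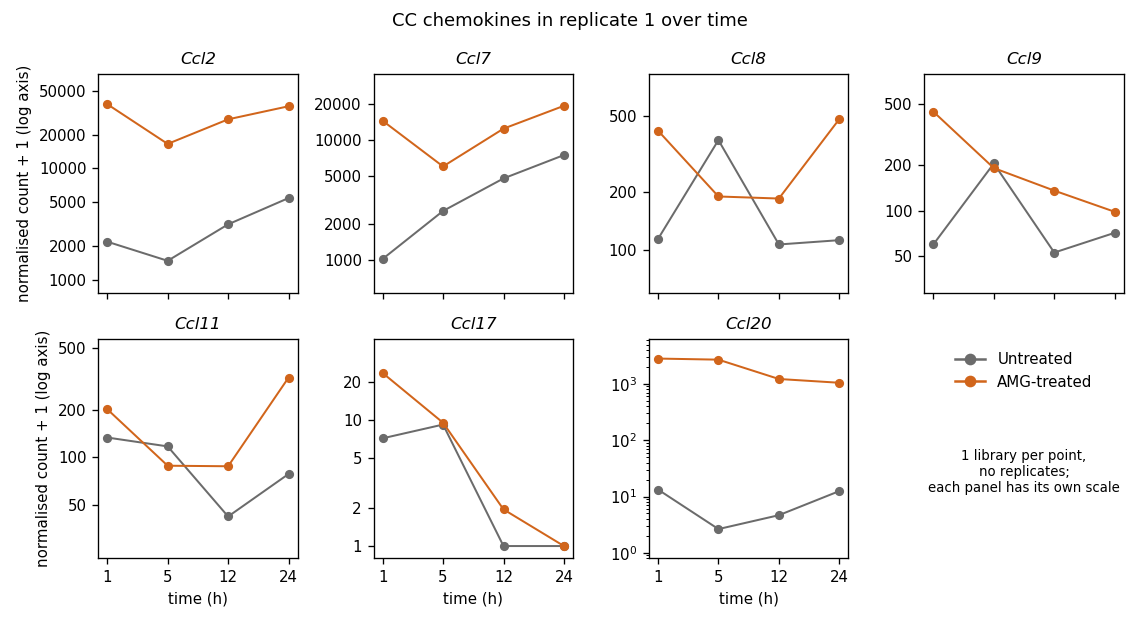
Normalised count + 1 of each gene in replicate 1 at 1, 5, 12 and 24 h on log axes, with 1 Untreated and 1 AMG-treated library per time and no replicates. Levels are not corrected for length. Treated cells lie above untreated ones at every time for Ccl2, Ccl7 and Ccl20, the untreated lines of Ccl2 and Ccl7 climb between 5 and 24 h, and the lines of Ccl8, Ccl9 and Ccl11 meet or cross at 5 h.

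The make-up of the chemokine RNA also differed. For comparison between genes the normalised count was divided by transcript length in kilobases. Ccl2 and Ccl7 were the highest pair in all 14 libraries. At 5 h Ccl7 was above Ccl2 in all 4 untreated libraries and Ccl2 above Ccl7 in all 4 treated ones. The ratio of Ccl2 to Ccl7 per kilobase was 0.568 in replicate 1 and 0.520, 0.581 and 0.495 in replicates 2 to 4 without AMG, and 2.72, 3.09, 2.5 and 3.02 with it. This pair was picked after its values were seen, so the separation is a description without a test. At 1 h the untreated library of replicate 1 was at 2.12 and the treated one at 2.58. At 12 and 24 h the untreated libraries were back below 1, at 0.648 and 0.714, and the treated ones at 2.20 and 1.86.

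**Figure D4:**
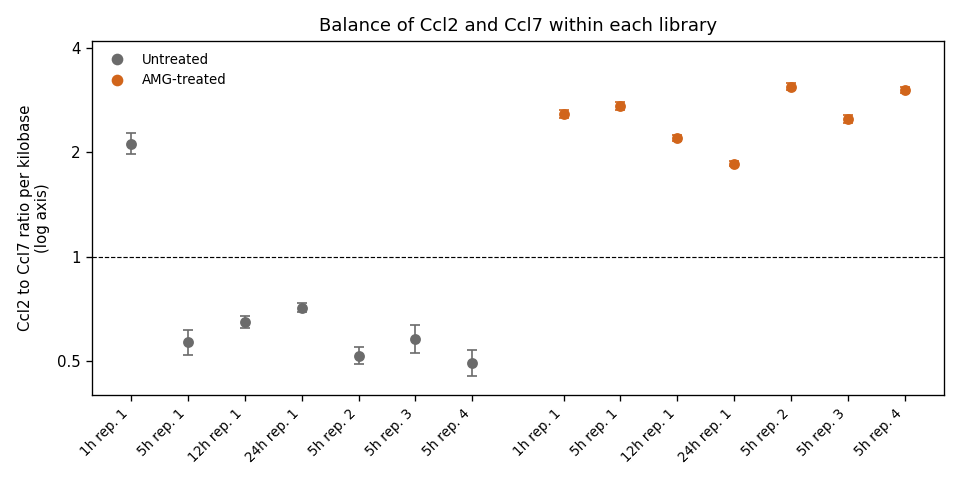
Ratio of Ccl2 to Ccl7, per kilobase of transcript, in each of the 14 libraries on a log axis, with exact 95% intervals for counting error and a dashed line at 1. The 7 AMG-treated libraries lie between 1.86 and 3.09, and the Untreated ones between 0.495 and 0.714 except the 1 h library at 2.12.

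Ccl2 took 30.6% to 36.2% of the summed level per kilobase of the 7 genes in untreated cells at 5 h and 67.3% to 69.4% in treated ones, while Ccl7 went from 53.8% to 65.0% down to 21.9% to 27.8%. Ccl20 took 0.0195% to 0.188% without AMG and 2.35% to 9.90% with it, and stood directly after Ccl2 and Ccl7 in all 4 treated 5 h libraries. The order of Ccl9 and Ccl17 below them was not stable. Ccl17 was above Ccl9 in untreated replicate 2 and in treated replicates 2 and 4, and below it in the other libraries. In reads, the 7 genes made up 0.00728% to 0.0318% of an untreated 5 h library and 0.122% to 0.338% of a treated one.

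Replicate 1 stood apart from the other replicates in 2 members. At 5 h it had 228 and 245 reads of Ccl8 without and with AMG, or 16.5 and 8.94 RPM (reads per 1000000 assigned reads), against at most 0.144 and 0.502 RPM in replicates 2 to 4. For Ccl11 it had 5.14 and 4.12 RPM, against at most 0.0797 and 0.410. In the treated 5 h library of replicate 1, Ccl2, Ccl7, Ccl9 and Ccl17 were below the range of replicates 2 to 4, with Ccl2 at 784 RPM against 966 to 2150, and Ccl20 was within it. Without AMG, Ccl2 was within the range, at 65.2 RPM against 21.7 to 108. Leukocyte markers summed to 1918 and 603 in these 2 libraries, on the scale of that table, of which Lyz2 gave 1541 and 315. Replicate 4, the library pair of its table with most leukocyte marker RNA, had 5 and 5 reads of Ccl8 and 0 and 1 of Ccl11. Whether the leukocyte share has a part in the levels of replicate 1 was not tested.

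Much of the rest of the family was low or not detected in these cells. Of 17 other genes of the family, 6 (Ccl19, Ccl21a, Ccl21b, Ccl21c, Ccl26 and Ccl27b) had 0 reads in all 14 libraries, although reads of near-identical copies such as the Ccl21 genes are lost when only unique alignments are counted. Of the 5 that could be tested, 0 were called with limma, where 1 had an unadjusted p under 0.05, and 0 with edgeR. DESeq2 and the block each called 1. Of all 13096 genes, DESeq2 called 1434 and the block called 17.9% higher. The called member of this list was Ccl5, an attractant of T cells and monocytes. It was at 8.80, 9.75 and 5.95 without AMG and at 1754, 92.6 and 1520 with it. Its log2 fold change of 6.13 (SE 1.08) had an adjusted p of 0.0532, or 0.000457 with the block. Like Ccl20 it passed the filter only through its treated libraries and was lowest among the treated in replicate 3. The others, Ccl6, Ccl25, Ccl27a and Ccl28, had log2 fold changes between -0.91 and 0.71. Ccl12, inside the chromosome 11 cluster between Ccl11 and Ccl8, had at most 7 reads in any library. Of the other genes below the filter, Ccl3 had at most 23 reads, Ccl22 11, Ccl4 10, Ccl1 7 and Ccl24 2.

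Receptors for these ligands were scarce. Of 15 CC chemokine receptor genes, 1 could be tested, and 3 had 0 reads in all 14 libraries, namely Ccr6 and Ccr8, the receptors of Ccl20 and mouse Ccl8, and Ccr1l1. A count of 0 allows up to 3 reads per library. Ccr2 had at most 3 reads and Ccr4 at most 1. Ccr3, the receptor of Ccl11, had 0 reads in the 3 untreated libraries and normalised counts of 2.54, 2.46 and 9.04 in the treated ones, below the filter, so it was not tested. In replicate 1 it was at 1.76, 6.56, 1.46 and 2.30 without AMG and at 8.69, 17.8, 32.4 and 24.3 with it at 1, 5, 12 and 24 h. Ccr1, the receptor of Ccl9, was at 2.20, 8.35 and 1.62 without AMG and at 21.6, 38.5 and 2.26 with it. Its log2 fold change was 1.74 (adjusted p = 0.361 with limma, or 0.0563 with the block). It passed the filter only through its treated libraries. In replicate 1 it was at 115 and 208 at 5 h.

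Among genes of the NF-kB system 9 rose. Of 14 listed subunits, inhibitors and kinases, all were tested. With limma 9 were called higher and 0 lower, beside 0.97% and 0.267% of all tested genes. The median log2 fold change was 1.44 against -0.02 over all genes. The list was drawn up with earlier results of these data known, so its count is a description. Nfkbia, the classical inhibitor, went from 314 ± 7.47 to 4994 ± 2692, a gain of 3.79 on the log2 scale (SE 0.44, adjusted p = 0.0196 with limma). Nfkbiz, which encodes an atypical inhibitor protein that also aids transcription, gained 3.03 and had the lowest adjusted p of the list, 0.00567. Tnfaip3, a brake on the pathway, had 2.89. The other 6 were the subunits Nfkb1, Nfkb2 and Relb and the inhibitor genes Nfkbib, Nfkbie and Bcl3, with log2 fold changes between 1.37 and 2.22. With edgeR 8 of the 14 were called, without Nfkbie, and with DESeq2 10, beside 135 and 1434 of all 13096 genes. Rela, at 0.67, passed with DESeq2 and with the block. The subunit Rel was at 30.8, 52.9 and 46.0 without AMG and at 22.9, 32.0 and 10.2 with it, -1.06 on the log2 scale (adjusted p = 0.252, or 0.0553 with the block), and was lower in all 3 pairs. The kinase subunits Chuk, Ikbkb and Ikbkg had values between -0.10 and 0.21.

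Of 9 genes of interleukin-4 and interleukin-13 signalling, 0 were called with limma, edgeR or DESeq2, 2 had an unadjusted p under 0.05 with limma, and 4 were called higher with the block, beside 17.9% of all genes. Of the 4, Il13ra2 and Il2rg passed the filter only through their treated libraries. The list's median log2 fold change was 0.24. The 4 were Il4ra, a shared receptor chain, at a log2 fold change of 0.55 (adjusted p = 0.00197 with the block), the decoy receptor Il13ra2 at 3.61 (0.00520), the feedback inhibitor Socs1 at 1.18 (0.0175) and the receptor chain Il2rg at 1.65 (0.0481). Stat6 itself was at -0.15.

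Fibroblast markers were counted as well. Of 10, 0 were called with limma, where 2 had an unadjusted p under 0.05, and 0 with edgeR. DESeq2 called 2, beside 1434 of all 13096 genes. With the block 7 were called lower, beside 19.3% of all genes, and the median log2 fold change was -0.50. Their summed level in replicates 2 to 4 was 625972 to 992114 without AMG and 501096 to 716379 with it. In replicate 1 it was 528601 without and 368004 with AMG at 1 h, and 345815 and 395118 at 5 h, the pairs uneven by transcript length. It was 440495 and 320848 at 12 h and 489044 and 255447 at 24 h. Thy1 had a log2 fold change of 0.27 in replicates 2 to 4. Of the 6 leukocyte markers tested, 0 were called with limma (0 at an unadjusted p under 0.05), edgeR or DESeq2. With the block 1 was called higher (Mrc1, of macrophages, at 2.05), beside 17.9% of all genes. The summed level of leukocyte markers was 185 to 1393 without AMG and 275 to 1300 with it. Any part of these shifts in the chemokine values was not tested. Of the 6 markers of keratinocytes, the main cells of the minced skin, Krt1, Krt5 and Krt14 were at 0 in all 6 libraries of replicates 2 to 4. Krt10 was at 15.3 to 52.2. Trp63, a regulator of basal keratinocytes, was at 28.6, 8.35 and 41.6 without AMG and at 5.09, 0 and 2.26 with it. Its adjusted p was 0.129 with limma, or 0.00377 with the block, and DESeq2 called it. Trp63 passed the filter only through its untreated libraries, so these calls are descriptions. The summed level of keratinocyte markers was 23.7 to 72.5 without AMG and 31.2 to 57.3 with it. The adipocyte markers Adipoq, Plin1 and Lep were at 0 in these libraries, too. Endothelial markers summed to 17.8 to 251 without AMG and 11.5 to 124 with it, and skeletal muscle markers to 2894 to 7289 and 1737 to 5490. Nearly all of the muscle sum was Acta1, at 2893 to 7289 without AMG and 1735 to 5490 with it. Myh4 and Myog were at 0 in these libraries and Ckm at 1.27 or less.

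Genes with a like pattern over all 14 libraries were ranked by Pearson's correlation of log2(normalised count + 1), centred on each table, among 12844 genes. The libraries share the treatment contrast, so the values are descriptions. Nearest to Ccl2 were Nfe2l2, a regulator of the oxidative stress response (r = 0.98), Cxcl1 (0.98) and Cxcl5 (0.96), both attractants of neutrophils. Ccl20 was the fourth nearest at 0.96, and Ccl7 the 17th at 0.93. Nearest to Ccl20 were the cytokine Lif (0.99), the transcript Gm16685 (0.98) and Cxcl3 (0.98). The gene nearest to Ccl7 was Ccl2, followed by Nfe2l2 (0.90) and Cxcl1 (0.88). Ccl9 had other neighbours, AA467197 (0.93), Msl2 (0.93) and Rac1 (0.92), and its correlation with Ccl2 was 0.69 and with Ccl7 0.58.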

How the data were processed

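RNA was sequenced from 14 libraries of wounded mouse fibroblasts. According to the study's methods and the submitters' processing notes, the authors made strand-specific mRNA libraries, read 50 bases from a single end, checked the reads with FastQC 0.11.5, aligned them to mm10 with TopHat2 2.0.13, kept unique alignments, handled the files with SAMtools 0.1.19.24 and counted reads per gene with HTSeq 0.5.3p3. The annotation release and the strand setting are not given in the sources used here, which leaves overlapping genes open to doubt. What the authors deposited is a normalised signal, each gene's count divided by a DESeq size factor per library, in 2 tables scaled separately (8 libraries of replicate 1, 6 of replicates 2 to 4). Groups and replicate numbers came from the sample titles.

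Low values were whole multiples of 1 step per library. Divided by it, 100% of values came out as whole reads within 0.1, and these reads served the count tools and the counting intervals. Reads carry no molecular identifiers, so intervals and floors (3 reads) cover counting error only. There were 0 rows that name no gene.

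The test at 5 h used limma 3.58.1 in R 4.3.3 (lmFit, eBayes with a trend) on log2(normalised count + 1) of 13096 genes with a mean of at least 10, which understates the change of low genes. Calls had a Benjamini-Hochberg adjusted p under 0.05. Replicate 1 was described without p-values. Deviations of libraries with the same number correlated across genes with r = 0.65, 0.76 and 0.70, and those of different numbers with r between -0.59 and 0.12, so the numbers pair the libraries. What a number stands for (an animal, a culture or a day) is not in the labels. A fit with the number as a block is therefore given beside the main one. Alternatives were other pseudocounts and filters, another scaling, limma without the trend, the count models of edgeR 4.0.16 and of DESeq2 1.42.0, a length correction (running median over 501 genes in order of transcript length), all 4 replicates together and leaving out libraries. Transcript lengths, gene positions and 3′ untranslated regions came from GENCODE M21, using the longest coding transcript, and promoters from RefSeq. The genes named are the 7 members, list genes that were called or that a result needs, and for each member with a mean of at least 10 in both tables the 3 genes most correlated with it. Ccl17, Ccl8 and Ccl11 do not reach that mean in both. The members and lists were chosen with earlier results of these data known.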

Additional observations from a re-analysis of the deposited data

Results flagged for a closer look

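In 4 groups of 4 libraries at 5 h the library of replicate 1 lay far from the other 3, by Dixon's gap criterion applied to 14 groups of values, which chance meets in about 1 of 20 groups. Ccl8 was at 16.5 RPM (reads per 1000000 assigned reads) in Untreated replicate 1, where the others had at most 0.144, and at 8.94 in AMG-treated replicate 1, where the others had 0.205 to 0.502. Ccl11 was at 5.14 RPM in Untreated replicate 1, against at most 0.0797, and at 4.12 in AMG-treated replicate 1, against 0.0574 to 0.410.

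In replicate 1 the log2 ratio of Ccl8 at 5 h was -0.98, below 0, while at 1, 12 and 24 h it was between 0.80 and 2.10. With 1 library per treatment and time the difference was not tested.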

How the results depend on the processing

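Of the 5 tested members, 2 passed at 5 h, and 162 genes in all. The replicate block gave 5 members and 4872 genes, edgeR with the replicate block 5 and 4852, the length correction with the replicate block 5 and 4439, DESeq2 5 and 1434, and limma without the trend 2 and 80. Alternatives chosen after seeing the data were all genes above 0 with the replicate block (6 of the 7 members, all of which it tested, and 4893 genes) and edgeR on replicates 1 to 4 with the replicate block (2 of 7 members, 487 genes). edgeR without the block gave 2 members and 135 genes. Leaving out 1 library, or both libraries of replicate 3 or 4 (a choice also made after seeing the data), gave 0 to 5 members and 0 to 2801 genes. Ccl2 and Ccl20 lost their call without AMG-treated replicate 2 (adjusted p = 0.125 and 0.123 with limma), without AMG-treated replicate 4 (0.118 and 0.108) and without Untreated replicate 4 (0.0866 each), Ccl2 without Untreated replicate 3 (0.0535) and Ccl20 without Untreated replicate 2 (0.0829). Leaving out libraries also leaves fewer residual degrees of freedom. All 114 alternative log2 fold changes of the 5 members were above 0. In replicate 1, 13 of 130 alternative log2 ratios were below 0, those of Ccl8, Ccl9 and Ccl11 at 5 h and of Ccl11 at 1 h. The number of members above 1 ranged from 3 to 6 and was moved most by the length correction, from 6 to 4 at 1 h. Depth limits Ccl8 and Ccl11 in replicates 2 to 4, with 0 to 11 reads, and Ccl17 in replicate 1, with 0 to 13 reads.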
